A study of Mus musculus with 33 samples.

Results

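The BCL2 family was followed here through 9 genes in single mouse oocytes: *Bcl2l10*, *Bcl2l1*, *Mcl1* and *Bcl2*, which promote survival, *Bax*, *Bak1* and *Bok*, which carry out cell death, and *Bbc3* and *Pmaip1*, which trigger it. They were chosen by name, as the rows of the deposited gene table that carry these 9 symbols, and all 9 were found among 35321 genes. The study asked how loss of *Nlrp5*, a core gene of the subcortical maternal complex of the egg, affects oocytes, and the RNA of 33 single germinal vesicle oocytes from mice of 3 *Nlrp5* genotypes was used here. The oocytes came from females aged 3 weeks on the C57BL6/Babr background and were freed from the ovary with collagenase, and RNA was separated from DNA before libraries were made. *Nlrp5* -/- oocytes carry a deletion of 5 bp made by CRISPR/Cas9 on both alleles, and *Nlrp5* +/- oocytes on 1 allele, in a line derived from edited zygotes. Females with the deletion on 1 or both alleles shared litters, and most *Nlrp5* +/+ females were bred in the founding colony.

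Oocytes were further divided by chromatin stage, from the non-surrounded nucleolus (NSN) stage, in which transcription is still active, to the surrounded nucleolus (SN) stage, in which it is largely silent. The labels do not give the stage. It was taken from the study's figures, and the study had inferred it from expression with a list of 105 NSN and 59 SN marker genes. *Mcl1* is on the NSN side of that list and *Bcl2l10* on the SN side, so the stage difference of these 2 members was in part used to define the stages and is given as a description. There were 4 NSN and 6 SN *Nlrp5* +/+ oocytes, 9 NSN and 7 SN *Nlrp5* +/- oocytes, and 4 NSN and 2 SN *Nlrp5* -/- oocytes. Oocyte 15, which is *Nlrp5* -/-, has no stage. No mouse is named for any oocyte, so the oocytes of 1 genotype and stage were taken as 1 sample, with no test between groups, and SD values measure the spread between oocytes that may share an animal.

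Proteins of the BCL2 family set whether the outer membrane of mitochondria stays sealed. Survival members hold BAX and BAK in check, BH3-only proteins such as PUMA, the product of *Bbc3*, and NOXA, the product of *Pmaip1*, bind the survival members and release the effectors, and the opened membrane lets cytochrome c activate caspases. In oocytes of the ovarian reserve, DNA damage acts through CHK2 and the p63 protein to switch on *Bbc3* and *Pmaip1*, and *Bcl2l10* is known as a transcript that is typical of oocytes.

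*Mcl1* and *Bok* were the members that differed by 2-fold or more between groups at a mean of at least 10 normalized counts, and the bases just before their transcription starts are shown for this reason, from RefSeq on GRCm38.p6, 5′ to 3′, with each CG dinucleotide in capitals. The *Mcl1* window is chr3:95658471-95658720 on the plus strand and the *Bok* window chr1:93685325-93685574 on the plus strand.
Mcl1: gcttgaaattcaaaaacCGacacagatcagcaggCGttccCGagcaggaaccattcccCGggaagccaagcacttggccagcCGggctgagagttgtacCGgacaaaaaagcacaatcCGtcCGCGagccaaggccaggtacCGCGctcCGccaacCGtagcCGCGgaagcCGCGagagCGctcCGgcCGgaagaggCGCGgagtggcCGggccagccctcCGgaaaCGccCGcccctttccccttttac
Bok: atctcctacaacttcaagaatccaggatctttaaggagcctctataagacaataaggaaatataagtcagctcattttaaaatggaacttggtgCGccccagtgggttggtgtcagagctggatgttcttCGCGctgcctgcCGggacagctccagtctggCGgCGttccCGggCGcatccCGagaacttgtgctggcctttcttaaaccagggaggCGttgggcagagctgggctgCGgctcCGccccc
The *Mcl1* window of 250 bases holds 26 CG dinucleotides, more than 90.4% of 32841 promoter windows of the same length, and the *Bok* window holds 12, more than 66.5% of them. The median over all windows was 6. An E-box, spelled CANNTG on either strand, occurs once in the *Mcl1* window and is absent from the *Bok* window, and 66.2% of all windows hold one. The promoter table held windows for 7 of the 9 members. The others, *Bcl2l10* and *Pmaip1*, are only named.

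Libraries held 4223595 to 15573360 counts on genes. *Nlrp5* itself, the targeted gene, had 10114 to 29131 normalized counts in *Nlrp5* +/+ oocytes, 5062 to 13472 in *Nlrp5* +/- and 1362 to 2556 in *Nlrp5* -/-, so that the *Nlrp5* -/- oocytes did not overlap with the others. A normalized count is the count divided by a size factor that sets the typical gene equal across the 33 oocytes. The 8 oocyte markers, such as *Gdf9* and *Zp3*, summed to 14628 to 29201 CPM (counts scaled to the same library total), with the lowest value in oocyte 15. Over a list of 16 markers of granulosa cells, which surround the oocyte, the *Nlrp5* -/- oocytes 14 and 15 lay above all *Nlrp5* +/+ oocytes. A subset of 12 of them was chosen after the data had been seen, by a low mean in *Nlrp5* +/+ oocytes. Over this subset oocytes 7 and 13 lay above all *Nlrp5* +/+ oocytes by a wide margin too, with values given beside *Bok*. Each of the 10 first index sequences of the libraries was used for 1 genotype only, so genotype and library set cannot be told apart, while 6 sets held oocytes of both stages.

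*Bcl2l10* was by far the most abundant member. Per kb of exon it had a mean of 8934 ± 1915 normalized counts (SD, n = 33 oocytes), which placed it at rank 18 of 34755 genes, and it took 0.128% to 0.277% of all counts in an oocyte. It lay above *Bcl2l1*, the next member, in 33 of 33 oocytes, by a factor of 38.4 to 125 with a median of 61.4. *Bcl2l1*, which encodes BCL-XL, had 148 ± 46.2 per kb (rank 2289).

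The effector *Bax* followed *Bcl2l1* with 75.6 ± 41.4 per kb. *Bcl2l1* was above *Bax* in 30 of 33 oocytes, the exceptions being oocytes 15, 56 and 63. *Bok* had a mean of 29.5 per kb but a median of 5.62, since oocyte 15 alone reached 660, and *Mcl1* had a mean of 27.6 and a median of 28.5. *Mcl1* exceeded *Bok* in 27 of 33 oocytes, so the order of these neighbours by mean rests on few oocytes.

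The remaining members were near the limit of detection. *Pmaip1* had a mean of 0.943 per kb with a count in 16 oocytes, *Bak1* 0.667 with a count in 8, and *Bcl2* 0.329 with a count in 17. *Bbc3* had 5 counts in all, 4 of them in oocyte 15 and 1 in oocyte 29. Neighbours among these 4 members were equal or changed places in many oocytes, and their order is not resolved at this depth.

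**Figure D1:**
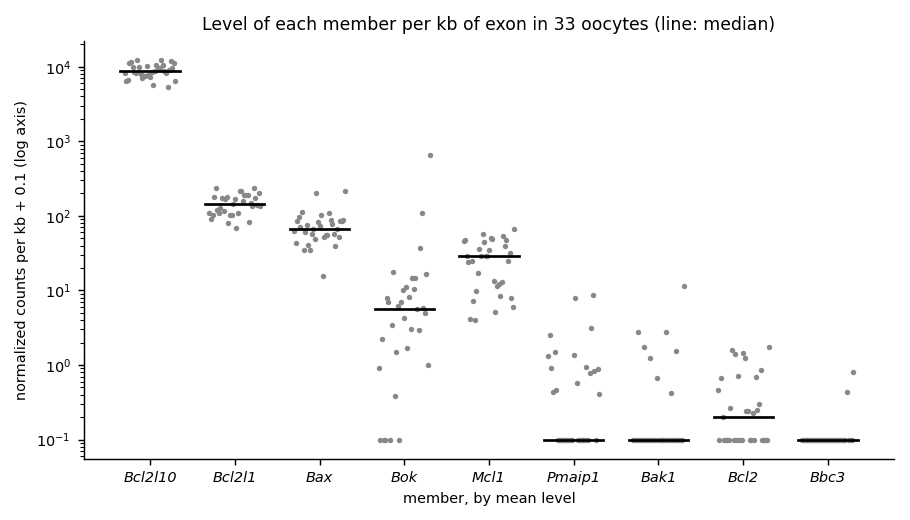
Normalized counts per kb of exon plus 0.1 on a log axis, for each member in 33 oocytes (points), with the median as a line. *Bcl2l10* lies above every other member in all oocytes with a mean of 8934, and *Pmaip1*, *Bak1* and *Bbc3* have a median at 0, drawn at the lower edge.

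Among the survival members, *Bcl2l10* (ENSMUSG00000032191, GRCm38 chr9:75347758-75351649, plus strand) was somewhat higher at the SN than at the NSN stage in each genotype. In *Nlrp5* +/+ NSN oocytes it had 11328, 11525, 14229 and 19407 normalized counts, and in SN oocytes 14500 to 21703 with a median of 17486. In *Nlrp5* +/- oocytes it ranged from 9955 to 18011 at the NSN stage, median 13218, and from 15181 to 21292 at the SN stage, median 17061. The stages overlapped in both genotypes.
*Bcl2l10* in *Nlrp5* -/- oocytes had 9273, 14511, 15825 and 20845 at the NSN stage and 16925 and 19578 at the SN stage, which again overlapped. The difference SN minus NSN on the log2 scale, with 1 added to each mean, was 0.33 in *Nlrp5* +/+, 0.38 in *Nlrp5* +/- and 0.27 in *Nlrp5* -/-. Each is under 2-fold. The spread between oocytes on the same scale was 0.43, 0.29 and 0.51, so that the difference exceeded it in *Nlrp5* +/-. Within the 6 library sets that hold both stages it ranged from 0.01 to 0.60, above 0 in each.

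*Bcl2l1* (ENSMUSG00000007659, chr2:152780668-152831728, minus strand) showed no difference beyond its spread. In *Nlrp5* +/+ it had 460, 519, 564 and 929 normalized counts at the NSN stage and 562 to 1195 at the SN stage, median 636. In *Nlrp5* +/- it had 353 to 914 at the NSN stage, median 554, and 427 to 1110 at the SN stage, median 975. The groups overlapped, although 6 of the 7 SN *Nlrp5* +/- oocytes lay at 811 or more and oocyte 55 alone was at 427.
*Nlrp5* -/- oocytes had 696, 762, 891 and 1211 at the NSN stage and 707 and 1028 at the SN stage. The log2 differences SN minus NSN were 0.28, 0.51 and -0.04 in *Nlrp5* +/+, +/- and -/-, with spreads of 0.61, 0.69 and 0.52.

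*Mcl1* (ENSMUSG00000038612, chr3:95658788-95663176, plus strand), which encodes a short-lived survival protein, was, among the members that passed the minimum in all 3 genotypes, the one that differed most between the stages. In *Nlrp5* +/+ oocytes it had 84.8, 102, 161 and 166 normalized counts at the NSN stage and 13.7, 13.9, 24.9, 34.0, 59.0 and 85.3 at the SN stage. The groups met at a single pair, oocyte 72 at the SN stage (85.3) and oocyte 87 at the NSN stage (84.8). In CPM of the summed counts, *Mcl1* had 17.5 (95% Poisson interval 16.1 to 18.9, counting error only) in NSN and 4.65 (4.15 to 5.20) in SN oocytes.
In *Nlrp5* +/- oocytes it had 99.5 to 199 normalized counts at the NSN stage, median 125, and 17.4 to 188 at the SN stage, median 42.6. All SN oocytes except oocyte 55 were at or below 46.6, under the lowest NSN oocyte, while oocyte 55 had 188. Oocyte 55 had a staging score of -3.88, from marker genes other than the members, inside the range of -5.06 to -3.53 of the SN *Nlrp5* +/- oocytes. These markers are from the list with which the study staged the oocytes, so the score is no independent check of its stage.
*Mcl1* in *Nlrp5* -/- oocytes had 85.2, 110, 137 and 164 at the NSN stage and 20.3 and 27.0 at the SN stage, with no overlap.

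The log2 difference of *Mcl1* SN minus NSN was -1.71 in *Nlrp5* +/+, -1.24 in *Nlrp5* +/- and -2.34 in *Nlrp5* -/-, with spreads of 1.15, 1.10 and 0.49. Without oocyte 55 the value in *Nlrp5* +/- was -1.90. Within library sets it was -1.68, -2.73 and -0.85 in the 3 *Nlrp5* +/+ sets, -1.60 and 0.31 in the 2 *Nlrp5* +/- sets and -2.21 in the *Nlrp5* -/- set. The positive value came from the set in which oocyte 55 is the only SN oocyte.

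In *Nlrp5* +/+, 4 of the 9 members had a mean of at least 10 normalized counts over both stages, and 1 of these, *Mcl1*, was past 2-fold, beside 12.8% of 13576 genes that passed the same minimum. In *Nlrp5* +/- it was 1 of 5, again *Mcl1*, beside 9.23% of 13613 genes. In *Nlrp5* -/- it was 2 of 5, *Mcl1* and *Bok*, beside 14.8% of 13840 genes. Among these 5 members, *Mcl1* and *Bax* (2 members) did not overlap between the stages, beside 20.2% of the genes, with only 2 SN oocytes. *Mcl1* thus lay on the same side in all 3 genotypes, but as a staging marker it adds no independent evidence.

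*Bcl2* (ENSMUSG00000057329, chr1:106538178-106714274, minus strand), the founding member of the family, had 123 counts over the 33 oocytes, and an antisense and a sense gene overlap it. Its means were between 0 and 4.70 normalized counts in the 6 groups, and the 2 SN *Nlrp5* -/- oocytes had no count, which allows up to 0.183 CPM at 3 counts. In CPM of the summed counts, *Bcl2* had 0.688 (Poisson interval 0.500 to 0.924) in NSN and 0.196 (0.0939 to 0.360) in SN *Nlrp5* +/- oocytes, intervals that did not overlap, while the values per oocyte overlapped, at 0 to 12.4 and 0 to 5.35 normalized counts. In *Nlrp5* +/+ it had 0.352 (0.187 to 0.602) in NSN and 0.400 (0.264 to 0.582) in SN oocytes, and a stage difference was not detectable there at this depth.

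**Figure D2:**
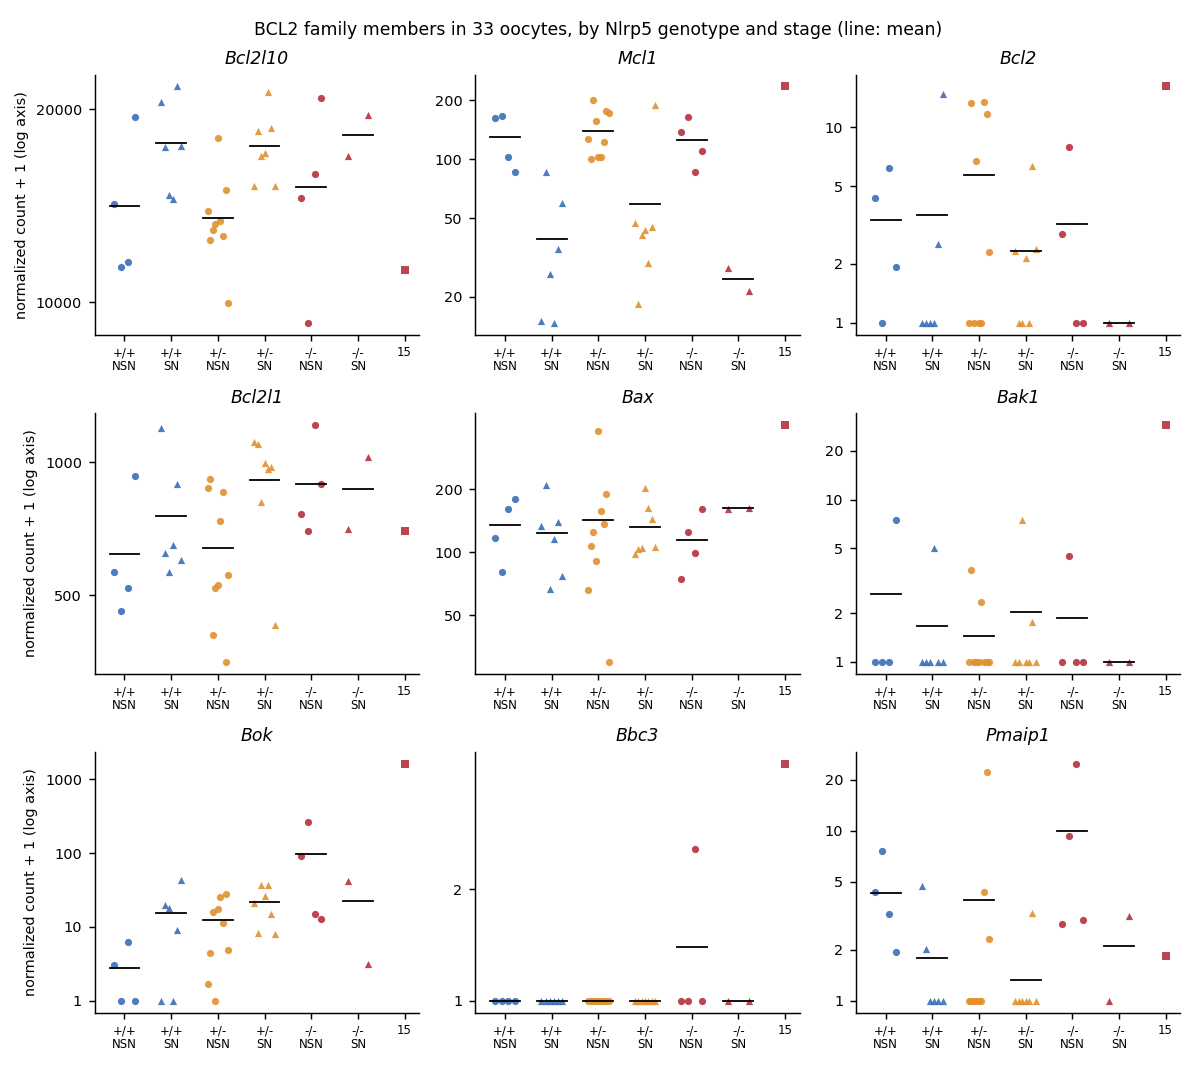
Normalized count plus 1 of each member in every oocyte (circles NSN, triangles SN, square the unstaged oocyte 15), by genotype and stage, on log axes that differ between panels; lines are means. *Mcl1* lies lower in SN than in NSN oocytes except for oocyte 55 at 188 and oocyte 72 at 85.3, and *Bok* reaches 1616 in oocyte 15.

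Of the effectors, *Bax* (ENSMUSG00000003873, chr7:45461697-45466898, minus strand), which forms pores in the mitochondrial membrane, was present in all 33 oocytes. In *Nlrp5* +/+ it had 79.2, 116, 159 and 179 normalized counts at the NSN stage and 65.4 to 208 at the SN stage, median 123. In *Nlrp5* +/- it had 28.9 to 377 at the NSN stage, median 124, with the highest value in oocyte 56, and 97.2 to 202 at the SN stage, median 105. The stages overlapped in both.
*Nlrp5* -/- oocytes had 73.8, 97.9, 124 and 159 at the NSN stage and 159 and 162 at the SN stage. These did not overlap, by a margin of less than 1 count. The log2 differences SN minus NSN were -0.12, -0.11 and 0.50, with spreads of 0.80, 1.10 and 0.47. The gene *Gm45808* overlaps *Bax* on the same strand, so reads there may have been assigned to either.

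*Bok* (ENSMUSG00000026278, chr1:93685660-93695764, plus strand), an effector that the survival members do not hold back, varied widely between oocytes. In *Nlrp5* +/+ it had 0, 0, 2.02 and 5.19 normalized counts at the NSN stage and 0, 0, 8.11, 17.1, 19.1 and 42.4 at the SN stage. In *Nlrp5* +/- it had 0 to 27.2 at the NSN stage, median 10.2, and 6.93 to 35.8 at the SN stage, median 19.97. Both stages overlapped in both genotypes.
*Nlrp5* -/- oocytes had 11.9, 14.2, 90.4 and 265 at the NSN stage and 2.17 and 40.5 at the SN stage. The stage difference was 2.46 in *Nlrp5* +/+, where the mean over both stages was 9.39 and did not reach the minimum, 0.82 in *Nlrp5* +/- and -2.11 in *Nlrp5* -/-. The spreads were 2.66, 1.96 and 3.36, and the -2.11 became -0.84 without oocyte 14 and -4.93 without oocyte 7. The difference between genotypes in this value was not tested.

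*Bak1* (ENSMUSG00000057789, chr17:27019810-27029009, minus strand), the close functional partner of *Bax*, had 62 counts in all, of which 33 were in oocyte 15. The other 7 oocytes with a count had between 1 and 7, and the other 25 oocytes had none. The genes *Gm50253* and *Ggnbp1* overlap it on the other strand, and whether the authors counted by strand is not given in the sources used here.

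Both BH3-only members were rare. *Pmaip1* (ENSMUSG00000024521, chr18:66458533-66465565, plus strand) had 0.922, 2.22, 3.36 and 6.60 normalized counts in NSN *Nlrp5* +/+ oocytes and a count in 2 of 6 SN oocytes, at most 3.75. In NSN *Nlrp5* -/- oocytes it had 1.85, 1.98, 8.31 and 23.7, and in NSN *Nlrp5* +/- oocytes it was at 0 in 6 of 9 with a highest value of 21.3. In CPM of the summed counts, *Pmaip1* was 0.433 (Poisson interval 0.248 to 0.703) in NSN and 0.119 (0.0512 to 0.234) in SN *Nlrp5* +/+ oocytes, and the intervals did not overlap.
The NSN value in *Nlrp5* -/- was 1.00 CPM (0.683 to 1.43) and the SN value 0.183 (0.0378 to 0.536). These intervals cover counting error, not the spread between oocytes, which for NSN *Nlrp5* -/- was 8.95 ± 10.3 normalized counts (SD, n = 4). *Bbc3* (ENSMUSG00000002083, chr7:16308393-16318205, plus strand) had no count in any *Nlrp5* +/+ or *Nlrp5* +/- oocyte. At 3 counts it would have had 0.0812 CPM over the NSN and 0.0444 CPM over the SN *Nlrp5* +/+ oocytes.

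Between genotypes at 1 stage, *Bcl2l10*, *Bcl2l1* and *Bax* were within 2-fold in every comparison, *Mcl1* was past it in 1, and *Bok* had the highest difference. The values per oocyte are those above. Among NSN oocytes, 1 of 5 members that passed the minimum was past 2-fold between *Nlrp5* -/- and *Nlrp5* +/+, namely *Bok*, beside 8.14% of 13833 genes. *Bok* reached the minimum only through its level in *Nlrp5* -/-, so this count and the lack of overlap are a description and give no support of their own. Its mean was 95.5 ± 119 normalized counts in *Nlrp5* -/- (SD, n = 4) and 1.80 ± 2.45 in *Nlrp5* +/+ (n = 4). All *Nlrp5* -/- oocytes were above all *Nlrp5* +/+ oocytes, and the log2 difference was 5.11. The groups did not overlap, in either direction, for 7.1% of the genes.
The other 4 had log2 differences of 0.10 (*Bcl2l10*), -0.05 (*Mcl1*), 0.52 (*Bcl2l1*) and -0.23 (*Bax*), with spreads of 0.61, 0.63, 0.57 and 0.70.

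Among SN oocytes, 0 of 5 members were past 2-fold between *Nlrp5* -/- and *Nlrp5* +/+, beside 10.1% of 13351 genes. The differences were 0.04 for *Bcl2l10*, -0.68 for *Mcl1*, 0.20 for *Bcl2l1*, 0.39 for *Bax* and 0.53 for *Bok*, which had a spread of 3.50. The value for *Bok* was -2.28 without oocyte 7 and 1.43 without oocyte 31, so its sign rests on single oocytes. With 2 *Nlrp5* -/- oocytes, at 2.17 and 40.5 for *Bok*, a difference smaller than this spread could not be seen.

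*Nlrp5* +/- oocytes had no member past 2-fold against *Nlrp5* +/+, 0 of 4 at the NSN stage beside 3.12% of 13732 genes and 0 of 5 at the SN stage beside 1.95% of 13295 genes. The largest of these differences was that of *Mcl1* at the SN stage, 0.59, which was -0.07 without oocyte 55. *Bok* at the NSN stage had 11.3 ± 10.2 in *Nlrp5* +/- (n = 9) and 1.80 ± 2.45 in *Nlrp5* +/+, a log2 difference of 2.13 at a mean under the minimum. The comparisons of both mutants with *Nlrp5* +/+ share the same *Nlrp5* +/+ oocytes.

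Between *Nlrp5* -/- and *Nlrp5* +/-, which were littermates, 1 of 5 members was past 2-fold at each stage, beside 6.5% of 13856 genes at the NSN and 8.91% of 13331 genes at the SN stage. At the NSN stage this was *Bok*, with a log2 difference of 2.98 and overlap between the groups. At the SN stage it was *Mcl1*, at 23.6 ± 4.75 in *Nlrp5* -/- (n = 2) and 58.3 ± 58.3 in *Nlrp5* +/- (n = 7), a difference of -1.27 that became -0.61 without oocyte 55. *Bok* at the SN stage had a difference of 0.04 between these genotypes with a spread of 2.78, and the difference was -2.77 without oocyte 7 and 0.94 without oocyte 31.

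**Figure D3:**
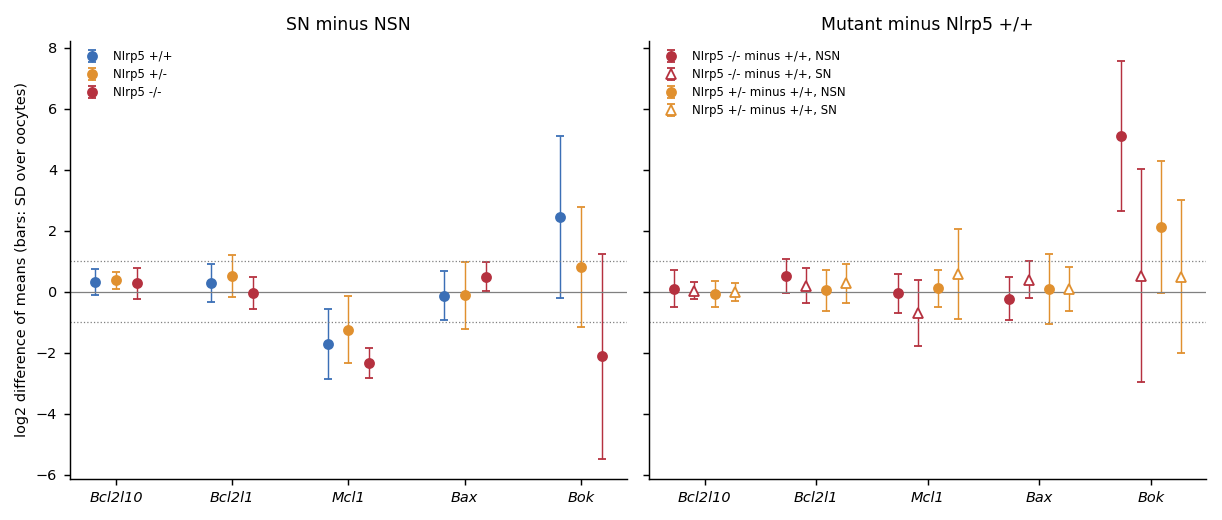
Log2 difference of mean normalized counts (plus 1) of 5 members, SN minus NSN in each genotype (left) and mutant minus *Nlrp5* +/+ at each stage (right); bars are the SD over oocytes of both groups combined, and dotted lines mark 2-fold. *Mcl1* lies below -1 in all 3 genotypes on the left, and *Bok* at 5.11 in NSN *Nlrp5* -/- is the highest value on the right, with *Bok* at 2.13 in NSN *Nlrp5* +/- under the minimum.

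The highest *Bok* values, those of oocytes 13, 14 and 15, occurred in libraries that also held transcripts of granulosa cells. Over all 16 granulosa markers the sum was 286 to 670 CPM in NSN *Nlrp5* -/- oocytes and 279 to 474 CPM in NSN *Nlrp5* +/+ oocytes, since 4 of them, *Serpine2*, *Cyp19a1*, *Nr5a2* and *Kitl*, were abundant in every group. Over all 16, oocytes 7 and 13 had 420 and 445 CPM, inside the range of *Nlrp5* +/+ oocytes. The 12 markers with a mean under 50 normalized counts in *Nlrp5* +/+ oocytes were a subset chosen after the data had been seen. Since they were picked as low in *Nlrp5* +/+, their low sums there were in part set by the choice. Over this subset, oocytes 13, 14, 29 and 30 (*Nlrp5* -/-, NSN) had sums of 158, 304, 17.8 and 9.64 CPM. In the same order, *Bok* had 11.6, 37.1, 1.84 and 1.58 CPM.
In the SN *Nlrp5* -/- oocytes 7 and 31 the marker sum was 110 and 13.8 CPM and *Bok* 5.22 and 0.282 CPM. In oocyte 15 the sum was 905 CPM and *Bok* 206 CPM. *Nlrp5* +/+ oocytes had marker sums of 1.38 to 12.1 CPM, and *Nlrp5* +/- oocytes 1.18 to 25.8 CPM. Of the 16 markers, 12 had a count in NSN *Nlrp5* +/+ oocytes, with *Foxl2*, *Amh*, *Inhbb* and *Fst* at 0, 15 in SN *Nlrp5* +/+ oocytes, with *Bex2* at 0, and all 16 in both *Nlrp5* +/- groups and in NSN *Nlrp5* -/- oocytes. In SN *Nlrp5* -/- oocytes it was 14, with *Wt1* and *Bex2* at 0.

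Across all 33 oocytes Spearman's rho between *Bok* and this marker sum was 0.63, and across the 29 oocytes without 7, 13, 14 and 15 it was 0.47. It was 0.06 over the 10 *Nlrp5* +/+ oocytes, in which the highest *Bok* value, 5.36 CPM in oocyte 86, came with the lowest marker sum, 1.38 CPM. These points share library depth and are given without a p-value. Over the 16 *Nlrp5* +/- oocytes it was 0.53. For *Bax* rho was 0.43 over all 33 oocytes, 0.49 over the 29, 0.43 in *Nlrp5* +/+ and 0.72 in *Nlrp5* +/-, so the relation was not particular to *Bok*. *Bcl2l10* had 0.07, 0.31, 0.31 and 0.54 in the same order, *Bcl2l1* 0.14, 0.18, 0.38 and -0.06, and *Mcl1* 0.12, -0.05, 0.02 and -0.19.
Without oocytes 7, 13 and 14 the log2 difference of *Bok* at the NSN stage was 2.33 between *Nlrp5* -/- and *Nlrp5* +/+, at a mean under the minimum, and 0.19 between *Nlrp5* -/- and *Nlrp5* +/-. Theca and interstitial cell markers summed to 257 CPM in oocyte 14 and 742 CPM in oocyte 15, and also to 123 and 348 CPM in the *Nlrp5* +/- oocytes 54 and 61, beside 5.46 to 23.4 CPM in *Nlrp5* +/+ oocytes. In oocytes 54 and 61 *Bok* had 0 and 24.4 normalized counts. Over 11 markers of stroma, vessels and blood, the sum was 84.3 to 99.8 CPM in NSN *Nlrp5* -/- oocytes. It was 45.8 to 75.2 CPM in NSN *Nlrp5* +/+ oocytes, 57.6 to 85.3 CPM in NSN *Nlrp5* +/- oocytes and 183 CPM in oocyte 15. Its largest part was *Pecam1*, with means of 599 and 438 normalized counts in NSN *Nlrp5* -/- and +/+, a log2 difference of 0.45. Of the 5 markers on this list that passed the minimum between NSN *Nlrp5* -/- and *Nlrp5* +/+, 4 were past 2-fold higher, beside 8.14% of all genes past 2-fold. *Col1a2*, *Hba-a1* and *Dcn* among them reached the minimum only through their level in *Nlrp5* -/-, so this count gives no support of its own. The part of these cells in the *Bok* values was not tested.

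**Figure D4:**
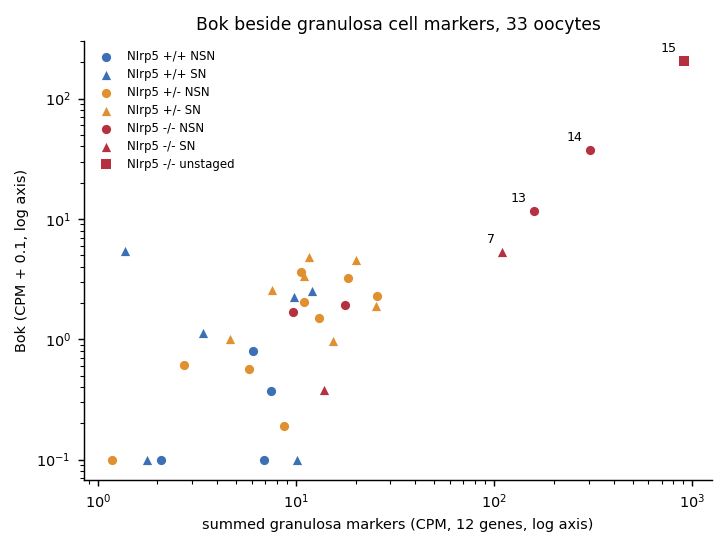
*Bok* (CPM plus 0.1) against the summed CPM of 12 granulosa markers in 33 oocytes, both on log axes, coloured by genotype with circles for NSN, triangles for SN and a square for the unstaged oocyte. Oocytes 7, 13, 14 and 15, all *Nlrp5* -/-, lie at marker sums of 110 to 905 CPM, apart from the other 29 on this axis only. Their *Bok* values run from 5.22 to 206 CPM, and the *Nlrp5* +/+ oocyte 86 has 5.36 CPM. The 12 markers were chosen by a low mean in *Nlrp5* +/+ oocytes.

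A staging score, the mean log2 level of 104 NSN markers minus that of 58 SN markers with the 2 members left out, was set beside each member within groups of at least 6 oocytes. For *Mcl1* in SN *Nlrp5* +/+ oocytes Pearson's r was 0.86 and Spearman's rho 0.83 (n = 6), and r was 0.56 without oocytes 72 and 80, the farthest on the score. In SN *Nlrp5* +/- oocytes r was 0.54 and rho 0.54 (n = 7), and r was 0.05 without oocytes 38 and 46. In NSN *Nlrp5* +/- oocytes r was -0.15 and rho -0.42 (n = 9), and r was -0.60 without oocytes 48 and 61.
The relation of *Mcl1* to the score was thus positive in both SN groups, weak in *Nlrp5* +/- once 2 oocytes were left out, and negative in the NSN group. *Bcl2l10* had r = -0.84 and rho = -0.86 in SN *Nlrp5* +/- oocytes, with r = -0.60 without the same 2 oocytes, but r = -0.06 in SN *Nlrp5* +/+ oocytes, which became -0.91 over the 4 oocytes left without 72 and 80, and r = 0.05 in NSN *Nlrp5* +/- oocytes. *Bok* had r = 0.78 and rho = 0.81 in SN *Nlrp5* +/+ oocytes, with r = 0.84 without oocytes 72 and 80, but r = 0.16 in SN and -0.18 in NSN *Nlrp5* +/- oocytes. *Bcl2l1* had r = -0.48 and rho = -0.66 in SN *Nlrp5* +/+ oocytes, with r = -0.97 without the same 2, and r = -0.37 in SN and 0.33 in NSN *Nlrp5* +/- oocytes. *Bax* had r = 0.18 in SN *Nlrp5* +/+ oocytes, which became -0.98 without these 2, and r = -0.27 in SN and -0.0046 in NSN *Nlrp5* +/- oocytes. Each value without oocytes 72 and 80 rests on 4 oocytes. All values come from libraries scaled alike and are descriptions.

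**Figure D5:**
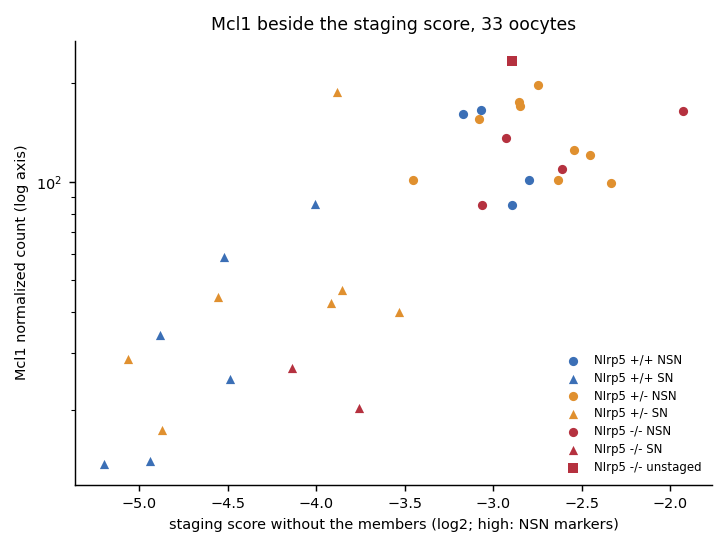
*Mcl1* normalized count (log axis) against the staging score without the members in 33 oocytes, coloured by genotype, with circles for NSN, triangles for SN and a square for oocyte 15. SN oocytes lie at low scores, which use the list that staged them. Except for oocyte 55 at 188, their *Mcl1* counts lie at 85.3 or less, while those of NSN oocytes lie at 84.8 or more.

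The make-up of the family followed from these levels. Of the summed level of the 9 members per kb, *Bcl2l10* took a median of 97.3% in NSN and 97.8% in SN *Nlrp5* +/+ oocytes, 97.0% and 97.5% in *Nlrp5* +/-, and 96.7% and 97.5% in *Nlrp5* -/-. In oocyte 14 the share was 93.6% and in oocyte 15 it was 85.5%.
The summed survival members exceeded the summed effectors by a median factor of 122 in NSN and 165 in SN *Nlrp5* +/+ oocytes, 104 and 134 in *Nlrp5* +/-, and 122 and 113 in *Nlrp5* -/-. The ranges overlapped, with 76.5 to 155 and 84.7 to 202 in *Nlrp5* +/+. The lowest values were 7.47 in oocyte 15, 31.1 in oocyte 14 and 49.7 in the *Nlrp5* +/- oocyte 56, in which *Bax* was high.
With *Bcl2l10* left out, the same factor had medians of 2.27 and 2.34 in NSN and SN *Nlrp5* +/+ oocytes, 2.62 and 2.32 in *Nlrp5* +/-, and 2.36 and 1.88 in *Nlrp5* -/-. Only oocytes 56 (0.627) and 15 (0.230) were below 1. Among the minor survival members, *Bcl2l1* exceeded *Mcl1* per kb by a median factor of 2.93 in NSN and 16.6 in SN *Nlrp5* +/+ oocytes, 3.53 and 15.8 in *Nlrp5* +/-, and 4.66 and 26.1 in *Nlrp5* -/-.

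Other genes of the pathway were mostly within 2-fold, as were most of all genes. At the stage comparison in *Nlrp5* +/+, 4 of 6 other BH3-only genes passed the minimum and 0 were past 2-fold, with a median log2 difference of 0.25, and of 14 of 15 caspase and apoptosome genes 0 were past 2-fold, with a median of -0.20. Of the 9 genes of the p53 family and damage kinases, all passed and 1 was lower, *Chek2*, the kinase upstream of p63, at 22.8 in SN and 73.2 in NSN oocytes (-1.64). The median over all genes was 0.03, and 12.8% of them were past 2-fold, so the counts of these lists do not set them apart.
*Chek2* had -0.68 in *Nlrp5* +/- and -0.18 in *Nlrp5* -/-. *Bcl2l15*, a BCL2 relative, was past 2-fold higher at the SN stage in *Nlrp5* +/+ (29.03 and 6.37, a difference of 2.03) and in *Nlrp5* +/- (19.9 and 4.01, 2.06), as 1 of 5 relatives that passed. It had 5.43 at the SN and 9.13 at the NSN stage in *Nlrp5* -/- and did not pass.
The 6 genes of MCL1 turnover and VDAC channels, among them *Usp9x*, which removes ubiquitin from MCL1, and *Huwe1*, which adds it, had 0 past 2-fold in every comparison. The 4 other survival genes, *Bcl2l2* and 3 copies of *Bcl2a1*, passed the minimum in none.

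In *Nlrp5* -/- oocytes the stage comparison had *Xiap*, a caspase inhibitor, past 2-fold lower (70.7 in SN and 144 in NSN, -1.01), and 1 of 9 damage genes, *Atm* (38.3 and 91.0, -1.23), beside 14.8% of all genes past 2-fold. Against *Nlrp5* +/+, NSN *Nlrp5* -/- oocytes had *Apaf1*, the core of the apoptosome, at 50.9 and 106 (-1.04) and *Chek2* at 35.5 and 73.2 (-1.02), each 1 gene of its list, of 14 and 9 that passed, beside 8.14% of all genes.
SN *Nlrp5* -/- oocytes had *Bcl2l15* at 5.43 and 29.03 (-2.22) against *Nlrp5* +/+, beside 10.1% of all genes past 2-fold. *Nlrp5* +/- oocytes had none of these genes past 2-fold against *Nlrp5* +/+ at either stage. Against *Nlrp5* +/-, *Nlrp5* -/- had none at the NSN stage. At the SN stage it had *Xiap* (-1.33) and *Bcl2l15* (-1.70) lower and *Bad*, a BH3-only gene, higher (75.4 and 35.1, 1.08), beside 8.91% of all genes.

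Among 13895 genes with a mean of at least 10, those most like each member over the 33 oocytes were found by Spearman's rho. *Bcl2l1* was closest to *Dclk2* (0.93), *Plppr3* (0.92) and *Troap* (0.91), and *Mcl1* to *Srsf11* (0.85), *Yy1* (0.85) and *Rnf11* (0.85). *Bcl2l10* was closest to *Lyrm4* (0.82), *4931428L18Rik* (0.81) and *Psmc1* (0.77). *Bax* was closest to *Gm45808* (0.90), which overlaps it, and then to *Rp9* (0.74) and *Rpl6* (0.72). *Bok* was closest to *Metrnl* (0.68), *Gja1* (0.67), itself 1 of the granulosa markers, and *Camk2d* (0.66).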

How the data were processed

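Single-cell RNA-seq libraries of 33 oocytes were used. The authors used Trim Galore for trimming and HISAT2 for alignment, left out libraries under 4000000 reads and deposited the raw count per gene and oocyte, with GRCm38 coordinates. The methods name GRCm39 as the genome of alignment, but the deposited columns are named for alignments to GRCm38. The deposited coordinates, which are those printed here, also match GRCm38. Of 35373 entries, 52 repeats of a gene were left out, none of them a member, and the first was kept. The authors' 3 tables of their own comparisons (fold changes and p-values of called genes) and their list of read totals were not used.

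Counts were divided by median-of-ratios size factors over the 33 oocytes. Differences are log2 of group means with a pseudocount of 1, called at 2-fold among genes with a mean of at least 10, and the spread is the root of the summed variances of log2(normalized count + 1) over oocytes. Levels per kb used the exon union of GENCODE vM39 (lengths only, 34755 genes). No library pair was identical. The calculation of the log2 differences was checked on simulated counts with known folds, and no test between groups was run. Genotype came from the labels and stage from the study's figures. Named genes were the members, up to 3 listed genes past 2-fold per list, and the 3 most like each member. A result of the caspase and apoptosome list is not reported here. Members and lists were chosen with earlier results of these data known. Python 3.11.15, numpy, pandas and scipy were used, and TMM factors came from edgeR. Poisson intervals are exact at 95% and cover counting error only.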

Additional observations from a re-analysis of the deposited data

Results flagged for a closer look

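In 30 sets of 4 to 9 oocytes, the 5 members that passed the minimum and the survival to effector ratio were checked for an oocyte far from the others by Dixon's criterion, which chance meets in about 1 of 20 sets. It was met by 2. *Mcl1* in SN *Nlrp5* +/- oocytes was 188 in oocyte 55, beside 46.6 in the next oocyte, a gap of 0.83 of the range. *Bax* in NSN *Nlrp5* +/- oocytes was 377 in oocyte 56, beside 189 in the next, a gap of 0.54 of the range.

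Oocyte 15 (*Nlrp5* -/-), which has no stage and entered no comparison of stages, had 6 members above 3 counts and above every *Nlrp5* +/+ oocyte. These were *Bok* at 1616 normalized counts (highest *Nlrp5* +/+ value 42.4), *Bax* at 403 (208), *Mcl1* at 235 (166), *Bak1* at 27.7 (6.45), *Bcl2* at 15.1 (13.7) and *Bbc3* at 3.36 (0). The summed oocyte markers of this library, 14628 CPM, were the lowest of the 33, and its 12 granulosa markers summed to 905 CPM.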

How the results depend on the processing

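The counts of members past 2-fold were 1, 1 and 2 for the stage comparison in *Nlrp5* +/+, +/- and -/-, 1 and 0 for *Nlrp5* -/- against +/+ at the NSN and SN stage, 0 and 0 for +/- against +/+, and 1 and 1 for -/- against +/-. With no minimum they were 3, 3, 4, 2, 1, 1, 0, 2 and 3 in this order, since members with few counts enter. With a minimum of 100 they were 0 for the stages in +/+ and in -/-, for -/- against +/+ at the NSN stage and for -/- against +/- at both stages. In the +/+ stage comparison TMM factors and size factors within the comparison each gave 2, *Bok* entering at a mean of just over 10. With oocyte 61 as SN the +/- stage comparison had 2, *Bok* again. Without oocytes 7, 13 and 14 the count was 1 for the stages in -/-, 0 and 1 for -/- against +/+ and 0 and 2 for -/- against +/-. With medians, -/- against +/- at the SN stage had 0. Leaving out 1 oocyte at a time gave 1 to 2 in each stage comparison (2 in +/+ without 69, 70, 78, 80 or 87, 2 in +/- without 61 or 63, and 1 in -/- without 14), 0 to 1 for -/- against +/+ at the SN stage (1 without 7, 31 or 86), 0 to 1 for +/- against +/+ at the SN stage (1 without 86) and 0 to 2 for -/- against +/- at the SN stage (2 without 7 and 0 without 55), and it moved no other count.

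Of 845 recomputed differences of single members, 837 moved by less than their spread, 7 moved by more and 1 reversed, *Mcl1* within the *Nlrp5* +/- set of oocyte 55 (0.31). A reversal was counted only where the main difference was past 2-fold at the minimum. Moves under a wide spread can still change the sign. *Bok* in SN *Nlrp5* -/- against +/+ went from 0.53 to -2.28 without oocyte 7, under its spread of 3.50. Not divided by length, *Mcl1*, *Bok*, *Bcl2*, *Pmaip1* and *Bak1* took places 4, 5, 6, 7 and 8 of the 9. The cause was not tested. No paired analysis was possible because the replicate numbers follow accession order and tie no oocytes together, and the stages were instead compared within the 6 library sets that hold both. The make-up without division by length and the subset of 12 granulosa markers were chosen after seeing the data. With 2 to 9 oocytes a group and few counts, differences of *Bcl2*, *Bak1*, *Bbc3* and *Pmaip1* were limited by depth.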
